A study of Mus musculus with 5 samples.

Results

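The 10 genes described here encode hepatic enzymes of the methionine cycle and of the connected folate, choline and sulfur pathways: Mat1a, Gnmt, Pemt, Ahcy, Bhmt, Cbs, Cth, Shmt1, Mthfd1 and Sardh. They were chosen by symbol, for function, and make up 10 of the 32285 genes in the deposited table. All 10 were found there, and all 10 passed 50 CPM (UMIs of the gene per 1000000 non-mitochondrial UMIs) in every library, so that no member was lost to the minimum set on low values. Their UMI counts (unique molecular identifiers, each standing for 1 captured transcript) were summed over hepatocytes in 5 single-cell libraries, 1 per time label. The series title asks how gluconeogenic expression shifts across hepatocytes between the fed, fasted and starved states. The 10 genes were measured in the same cells.

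The hepatocytes came from the livers of male wild-type (WT) C57BL/6J mice on normal chow. The animals had been accustomed for 3 days to 16 h overnight without food, followed by 8 h with it. On the last day all received food together with 20% sucrose in the drinking water. The fed library (0 h) was taken after 4 h of that feeding, at clock hour 13. Food and sucrose water were then withdrawn, and the other libraries were taken 4, 8, 16 and 24 h later, at clock hours 17, 21, 5 and 13. Fasting time and hour of day therefore cannot be told apart, except between 24 h and 0 h. The sources used here do not state how many animals were pooled into each library. With 1 library per time there is no replicate check: the intervals below are 95% intervals for counting error only, and each comparison is between libraries, not between feeding states.

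As background, methionine is converted to S-adenosylmethionine, the methyl donor of most cellular methylation, by methionine adenosyltransferase, whose liver form is encoded by Mat1a. Methyltransferases use the donor and leave S-adenosylhomocysteine, which Ahcy hydrolyses to homocysteine. Homocysteine is either methylated back to methionine, in liver in good part by Bhmt with betaine as donor, or passed through Cbs and Cth to cysteine. The liver is a main site of methionine metabolism, and the folate cycle supplies and receives the carbon units of these reactions.

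RefSeq promoter windows (GRCm38.p6, 250 bases before the annotated start) matched 8 of the 10 genes; Mat1a and Cth had no entry. Each window was searched on both strands for 8 motifs. The commonest match was AGGTCA, which reads TGACCT from the opposite strand. It is the core recognised by many nuclear receptors, and it was found in the windows of Ahcy, Bhmt, Gnmt, Mthfd1 and Sardh. Of the 32851 windows of equal length in the table, 14.0% held it. The Bhmt window held 3 copies, 234, 72 and 47 bases before the start, and 43 windows (0.131%) in the table held 3 or more. The copies at 72 and 47 bases lie within the GENCODE gene of Bhmt, and the copy at 234 bases lies outside. Whether the inner copies fall in exon or intron was not checked. Stretches outside any GENCODE exon of the gene are shown for Bhmt and Ahcy, the pair with the most similar time courses below, and for Gnmt, whose course differed. Capitals mark AGGTCA or TGACCT, and each run is written 5′ to 3′ on the strand of the gene, which is the minus strand for all 3.
Bhmt chr13:93637962-93638008: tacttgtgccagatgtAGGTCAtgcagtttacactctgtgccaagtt
Ahcy chr2:155074498-155074747: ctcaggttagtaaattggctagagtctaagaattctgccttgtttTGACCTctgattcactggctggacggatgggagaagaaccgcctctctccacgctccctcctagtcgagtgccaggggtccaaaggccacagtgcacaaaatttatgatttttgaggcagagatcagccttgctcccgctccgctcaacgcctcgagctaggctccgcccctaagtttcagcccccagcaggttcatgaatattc
Gnmt chr17:46729169-46729415: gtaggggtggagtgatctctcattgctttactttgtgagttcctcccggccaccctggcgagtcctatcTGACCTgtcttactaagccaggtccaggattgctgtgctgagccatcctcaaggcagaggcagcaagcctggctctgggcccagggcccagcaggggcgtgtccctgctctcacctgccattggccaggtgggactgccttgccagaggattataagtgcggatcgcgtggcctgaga

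The other motifs gave few matches in the 8 genes. TGACG, the core of the cAMP response element, was found in the Shmt1 window and in 17.8% of all windows, and the E-box CACGTG in the Cbs window and in 6.02%. The whole Shmt1 window lies within the GENCODE gene of Shmt1. The TATA box (TATAAA, 12.4% of all windows), the glucocorticoid receptor core TGTTCT (16.1%), the FOXO site GTAAACA (3.17%), the C/EBP site TTGCNNAA (9.56%) and the HNF4 core CAAAGTCC (1.20%) had no match in the 8 genes. No match overlapped one of another motif. These are matches of letters only, and binding was not measured.

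Barcodes counted as hepatocytes had 1000 UMIs or more, 500 genes or more and 2% to 30% of UMIs from mitochondrial genes. This left 7826, 4567, 2716, 9125 and 4576 barcodes in time order, in all 28810 of 50000. Libraries held 40002260 to 68330252 UMIs, and the hepatocyte sums behind each value held 33521626 to 45532684 non-mitochondrial UMIs. All 7 hepatocyte markers were present in each library, with a summed level of 95385 to 119044 CPM, while the markers of 7 other cell classes summed to at most 149 CPM per class. Depth and inflammation genes set libraries apart. The median UMI count per hepatocyte was lowest at 16 h (4391) and highest at 8 h (15005), and 10 acute-phase genes, which the liver induces in inflammation, summed to 21561 CPM at 16 h against 5122 to 9152 CPM in the other 4 libraries. Any pair of libraries shared 22 to 30 barcode sequences.

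Bhmt was the member that differed most between libraries. Cbs, Sardh, Ahcy, Gnmt, Shmt1 and Mat1a were each called at 1 or more times, and Pemt, Cth and Mthfd1 at none. A gene was called higher or lower where its CPM differed from fed at least 1.5-fold, with 50 CPM or more in either library. At 4 h, 2 of the 10 members were called higher (Bhmt and Ahcy), beside 13.7% of all genes tested, and 0 lower, beside 16.5%. At 8 h, 4 were called higher (Bhmt, Ahcy, Mat1a and Cbs; 17.9% of all genes) and 1 lower (Shmt1; 23.2%). At 16 h, 1 was called higher (Bhmt; 10.3%) and 2 lower (Gnmt and Sardh; 13.3%). At 24 h, 3 were called higher (Bhmt, Ahcy and Mat1a; 16.8%) and 0 lower (20.3%). At a 2-fold limit 1 member was higher at 4 h (5.73% of all genes) and 0 lower (5.97%). At 8 h 2 were higher (7.95%) and 0 lower (11.8%), at 16 h 0 higher (3.31%) and 0 lower (4.04%), and at 24 h 2 higher (6.68%) and 0 lower (10.6%). Scaling by TMM (trimmed mean of M-values) adds 1 constant to the log2 ratio of every gene at a given time: the median of all genes moved by 0.21, 0.24, 0.06 and 0.18 in time order. Under it, 4 members were called higher and 0 lower at 4 h, beside 23.1% and 8.92% of all genes. The counts were 7 and 1 at 8 h (29.5% and 15.2%), and 4 and 0 at 24 h (25.3% and 14.6%). The 4 comparisons share the fed library as control. The median log2 ratio to fed over the 10 members was 0.14, 0.43, 0.02 and 0.21 in time order, and over all genes tested -0.03, -0.04, 0.00 and -0.03.

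**Figure D1:**
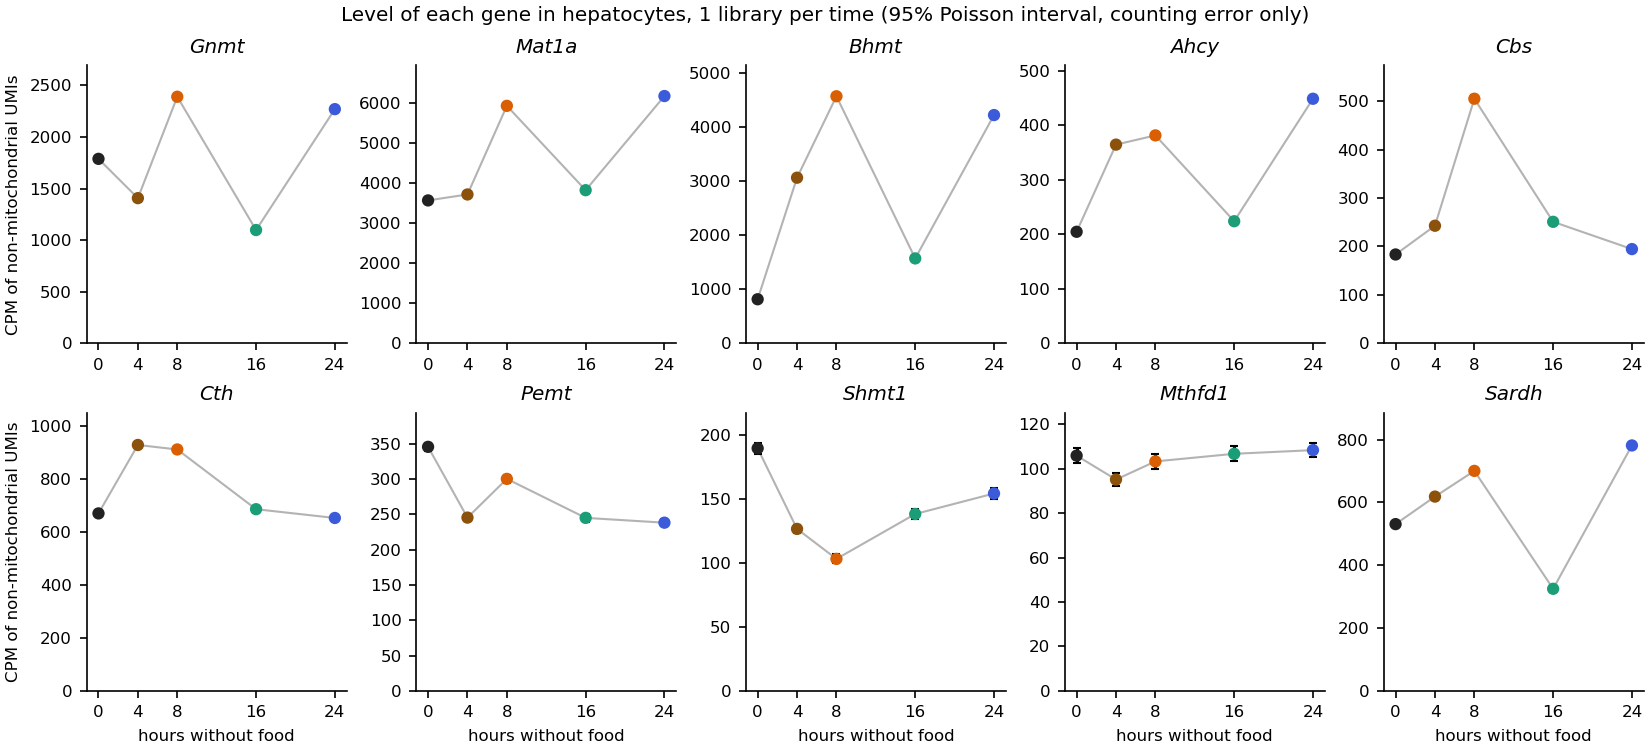
Level of each of the 10 genes (vertical axis, CPM of non-mitochondrial UMIs, from 0) against hours without food (horizontal axis), 1 point per library, with 95% Poisson intervals that are mostly smaller than the points. Bhmt was lowest in the fed library at 813 CPM and highest at 8 h at 4566 CPM, and Mthfd1 stayed between 95.1 and 108 CPM.

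The remethylation enzyme Bhmt (betaine-homocysteine methyltransferase; chr13:93616675-93637961, minus strand) stood at 813 CPM in the fed library (804 to 822 by counting error), against 3061, 4566, 1568 and 4219 CPM in the fasted libraries in time order. Every fasted library lay above the fed one, and the intervals of the 5 levels did not overlap. The ratio to fed was 3.76-fold at 4 h (log2 1.91, interval 1.89 to 1.93) and 5.61-fold at 8 h (log2 2.49, 2.47 to 2.51). It was 1.93-fold at 16 h (log2 0.95, 0.93 to 0.97) and 5.19-fold at 24 h (log2 2.37, 2.36 to 2.39). Among 2009 genes with 50 CPM or more in all 5 libraries, 27 (1.34%) had a larger ratio of highest to lowest library than Bhmt. Its neighbour in sequence and function, Bhmt2, which uses another methyl donor, varied only between 256 and 330 CPM.

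Mat1a and Ahcy, which stand before and after the methyltransferases in the cycle, were also higher after 8 h and 24 h. Mat1a (chr14:41105035-41124412, plus strand) stood at 3565 CPM fed, 3713 CPM at 4 h, 5925 CPM at 8 h, 3820 CPM at 16 h and 6169 CPM at 24 h. The 4 h and 16 h libraries thus lay close to fed, and the other pair lay 1.66-fold and 1.73-fold above it. Ahcy (adenosylhomocysteinase; chr2:155059310-155074497, minus strand) stood at 205 CPM fed and at 365, 382, 224 and 449 CPM in the fasted libraries. Its ratio to fed was 1.78-fold at 4 h, 1.86-fold at 8 h, 1.09-fold at 16 h and 2.19-fold at 24 h, the last also past 2-fold. For Ahcy, too, the 16 h library lay close to fed. Gm4737, an Ahcy-like gene, stood between 14.8 and 43.0 CPM, and reads could be split between such copies.

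Gnmt (glycine N-methyltransferase; chr17:46725664-46729168, minus strand), which disposes of excess S-adenosylmethionine by methylating glycine to sarcosine, followed another course. It stood at 1788 CPM fed, 1407 CPM at 4 h, 2390 CPM at 8 h, 1097 CPM at 16 h and 2270 CPM at 24 h. Only the 16 h library passed 1.5-fold, at 0.61 times fed (log2 -0.70, interval -0.72 to -0.69). The values at 4 h and 24 h turned on which barcodes were counted. With barcodes of at least 5000 UMIs alone, the log2 ratio at 4 h was -0.53 in place of -0.35, and at 24 h it was 0.01 in place of 0.34. With barcodes of any mitochondrial share up to 30%, it was 0.29 at 4 h and 1.18 at 24 h. No direction is therefore given for Gnmt at these times. At 8 h and 16 h the sign was the same in all 13 other settings.

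Pemt (phosphatidylethanolamine N-methyltransferase; chr11:59970614-60046489, minus strand), which makes phosphatidylcholine from phosphatidylethanolamine with 3 methyl groups, was highest in the fed library. It stood at 346 CPM fed, 245 CPM at 4 h, 300 CPM at 8 h, 245 CPM at 16 h and 238 CPM at 24 h. The interval of the fed level did not overlap that of any fasted library, while 4 h and 16 h, and 16 h and 24 h, overlapped each other. Over all hepatocytes no ratio reached 1.5-fold: the log2 values were -0.49, -0.20, -0.50 and -0.54. The 8 h value was 0.04 under TMM, which moved all genes by 0.24 at that time. Among barcodes under 5000 UMIs the values were -0.62, -0.79, -0.57 and -0.96, past 1.5-fold at 4 h, 8 h and 24 h. Among the others they were -0.43, -0.12, -0.56 and -0.44.

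In the transsulfuration branch the first enzyme passed 1.5-fold at 8 h and the second at no time. Cbs (cystathionine beta-synthase; chr17:31608894-31637238, minus strand) stood at 183 CPM fed, 243 CPM at 4 h, 505 CPM at 8 h, 251 CPM at 16 h and 194 CPM at 24 h. The 8 h library was 2.75-fold above fed (log2 1.46) and at least 2-fold above the libraries before and after it. Cbs levels at 4 h and 16 h, 1.32-fold and 1.37-fold above fed, overlapped within counting error. Cth (cystathionine gamma-lyase; chr3:157894248-157925077, minus strand) stood at 669, 927, 910, 685 and 652 CPM. Its highest ratios to fed were 1.39-fold at 4 h and 1.36-fold at 8 h, both under 1.5-fold. By 24 h Cbs lay 1.06-fold above fed and Cth 0.97 times fed.

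Among the folate and sarcosine enzymes, Shmt1 was lower in every fasted library, Mthfd1 hardly varied and Sardh was lowest at 16 h. Shmt1 (cytosolic serine hydroxymethyltransferase, which moves a carbon unit from serine to folate; chr11:60788104-60811718, minus strand) stood at 189, 126, 103, 138 and 154 CPM. Its log2 ratio was -0.58 at 4 h (interval -0.63 to -0.53), just inside the 1.5-fold limit, and -0.88 at 8 h (-0.94 to -0.82), past it. At 16 h it was -0.46 and at 24 h -0.30. Mthfd1 (chr12:76255298-76319803, plus strand), which interconverts the folate forms that carry the carbon unit, stood at 106, 95.1, 103, 107 and 108 CPM. Of the 2009 genes above, 1973 (98.2%) had a larger ratio of highest to lowest library than Mthfd1, whose ratio was 1.14. Sardh (sarcosine dehydrogenase, the mitochondrial enzyme that returns sarcosine to glycine; chr2:27188393-27248337, minus strand) stood at 531, 619, 701, 325 and 782 CPM. It was 0.61 times fed at 16 h and 1.47-fold above fed at 24 h, just under the limit. Its direction at 4 h and 24 h differed between shallow and deep barcodes, as given with the depth split. Its antisense neighbour Sardhos had 0 to 9 UMIs per library.

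**Figure D2:**
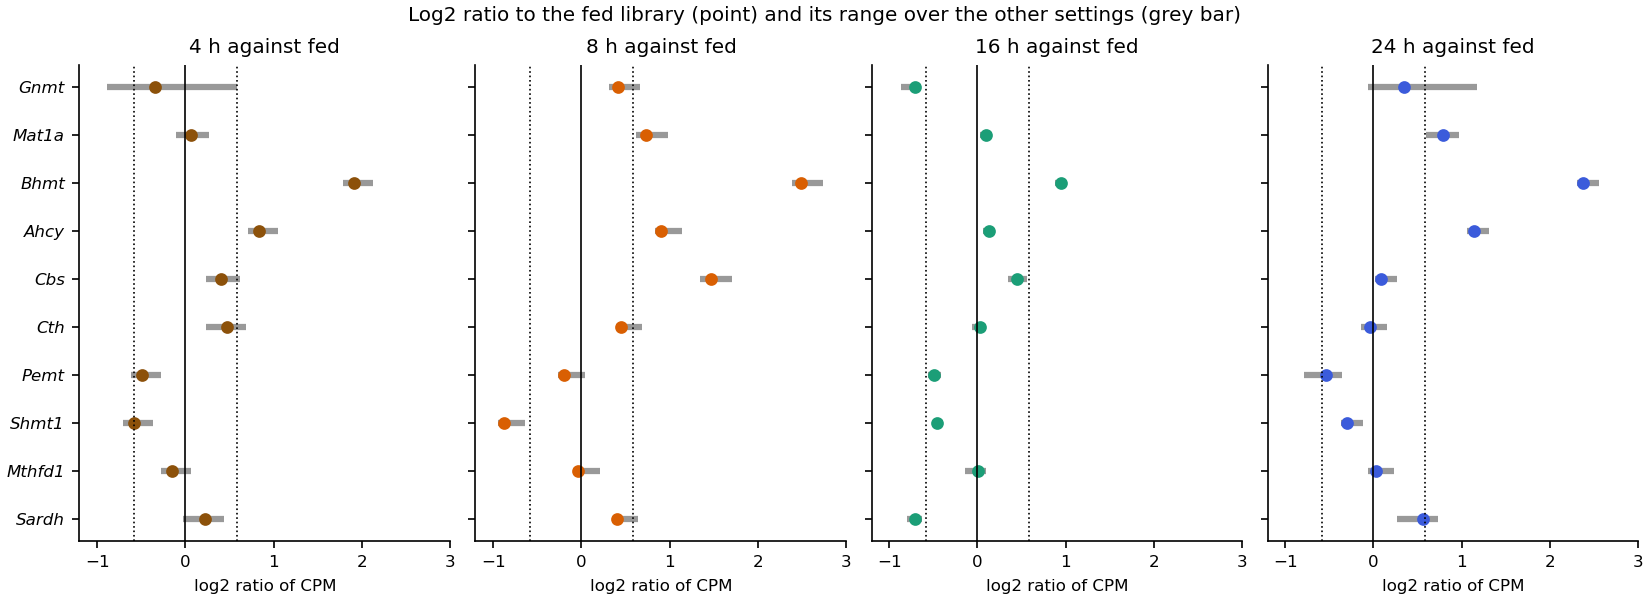
Log2 ratio of CPM to the fed library (horizontal axis) for each gene (rows) in the 4 fasted libraries (panels), with the value as reported (points) and the range over 13 other settings (grey bars). Solid lines mark no difference and dotted lines 1.5-fold. Bhmt lies to the right of the dotted line at all 4 times, and the widest bars are those of Gnmt at 4 h and 24 h.

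The 16 h library lay below both of its neighbours in time for 5 members, a pattern singled out after the values were seen. Gnmt, Mat1a, Bhmt, Ahcy and Sardh were each at least 1.5-fold lower at 16 h than at both 8 h and 24 h, beside 13% of the 3145 genes tested. The other 5 members did not meet that limit, and 0 of the 10 were at least 1.5-fold above both neighbours, beside 13.7%. The 16 h library also had the highest acute-phase sum and the lowest depth, as given above. Its sum of 7 immediate-early genes, which respond to stress and handling within minutes, was the highest too, at 561 CPM, against 420, 349, 182 and 172 CPM at 0 h, 4 h, 8 h and 24 h. Not all of these genes peaked there. Egr1, Jun and Junb were highest at 16 h, Dusp1 and Atf3 at 0 h, and Fos and Ier2 at 4 h. The part of immediate-early genes in the pattern was not tested. Among barcodes with at least 5000 UMIs, Bhmt stood at 4571 CPM at 8 h, 1663 CPM at 16 h and 4235 CPM at 24 h, and Sardh at 702, 311 and 829 CPM. All 5 members met the 1.5-fold limit in these barcodes. The share of all genes that met it is not given for these barcodes or for the low acute-phase group that follows. When cells were ranked by acute-phase share within each library and split into 4 equal groups, the group with the lowest share summed to 6754 acute-phase CPM at 16 h, against 3460 CPM at 8 h and 3148 CPM at 24 h, so that these groups were not matched in acute-phase level. In that group Bhmt stood at 1696 CPM at 16 h, against 4358 CPM at 8 h and 4971 CPM at 24 h in the same group of those libraries. Bhmt, Gnmt and Sardh met the limit in this group. Mat1a did not, at 4286 CPM against 5918 and 7155 CPM, nor did Ahcy, at 279 CPM against 387 and 502 CPM, each 1.38-fold or 1.39-fold below the 8 h level.

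Within a library, cells with the highest acute-phase share carried less of several members. At 24 h, the group of cells with the highest share (1144 cells) had 2592 CPM of Mat1a and 2184 CPM of Bhmt, against 7155 and 4971 CPM in the group with the lowest. Pemt was higher in the cells with the highest share, at 360 against 191 CPM, and Sardh slightly so, at 834 against 738 CPM. The median depth of these groups was 5904 against 9392 UMIs, and its part in the result was not tested. Gnmt was lower in the cells with the highest share at 0 h (1425 against 2021 CPM), 16 h (862 against 1428 CPM) and 24 h (2037 against 2708 CPM). It was higher in them at 8 h (2786 against 2253 CPM) and at 4 h (1925 against 1237 CPM), where the median depth was 3177 against 12033 UMIs. At 8 h the same groups were close, with 5844 against 5918 CPM of Mat1a and 4422 against 4358 CPM of Bhmt.

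The share of cells with at least 1 UMI followed the order of the levels for Bhmt, Cbs, Shmt1, Gnmt and Ahcy. For Mat1a, Sardh, Cth, Pemt and Mthfd1 it did so only in part. After the thinning described next, the Mat1a share was 99.0% at 8 h and 97.1% at 24 h, and the Sardh share 50.8% and 47.4%. Both levels were higher at 24 h. After each cell was thinned to 1000 non-mitochondrial UMIs, Bhmt was detected in 52.5% of hepatocytes at 0 h (exact Clopper-Pearson interval 51.4% to 53.6%). In the fasted libraries it was detected in 91.9%, 97.5%, 74.9% and 94.3%, in time order. Without thinning the shares were 87.6%, 99.1%, 99.6%, 94.6% and 99.9%, at median depths of 3782 to 13643 UMIs. For Cbs the thinned shares were 15.3%, 19.0%, 39.4%, 22.0% and 15.9%, and for Shmt1 17.0%, 11.2%, 10.0%, 13.1% and 13.9%. Thinning left out 4 cells at 4 h, 25 at 8 h and 122 at 16 h. Barcodes with endothelial markers, which should lack these hepatocyte enzymes, numbered only 35, 5, 12, 28 and 8. Thinned in the same way, 42.9% of them had a Bhmt UMI at 0 h (26.3% to 60.6%), an interval that takes in the thinned share of the fed hepatocytes. Without thinning it was 74.3% of them, at a median depth of 1827 UMIs. The hepatocyte shares of Bhmt at 4 h, 16 h and 24 h also lay inside the wide intervals of these few barcodes. At 8 h 8.33% of them had one after thinning (0.211% to 38.5%), below the hepatocytes.

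Within the liver lobule, hepatocytes differ along the path of the blood: Cyp2f2 marks those near the portal vein and Cyp2e1 those near the central vein. Cells of each library were ordered by the log2 ratio of the 2 genes (50 CPM added to each) and split into 5 equal bins, from bin 1 at the Cyp2e1 end to bin 5 at the Cyp2f2 end. The bins are parts of a range, not positions in tissue. The order was coarse. In bin 5 of every library but that of 4 h, no cell had a Cyp2e1 UMI, so that cells there were ordered by Cyp2f2 alone. In the 24 h library Cyp2e1 was low throughout (478 CPM over all hepatocytes). There bin 1 had a median of 2850 UMIs and 9.34% mitochondrial UMIs per cell, against 10145 UMIs and 19.5% in bin 5. In that bin 1, 18.1% of cells had no Cyp2e1 UMI. Glul fell from 396 CPM in bin 1 to 156 CPM in bin 5 at 0 h, but stood at 47.8 and 58.1 CPM at 24 h. Sds stood at 43.4 and 154 CPM at 0 h, but at 652 and 401 CPM at 24 h. Cyp1a2 and Hal kept their direction at 24 h, at 88.0 and 11.1 CPM and at 642 and 945 CPM. The ends of the 24 h order may therefore not match those of the other libraries.

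The members were mostly level along this order. At 0 h, 0 of 10 were called at least 1.5-fold higher at the Cyp2f2 end (3.28% of all genes) and 0 lower (8.81%). At 4 h, 1 was called higher, Cbs (5.2%), and 0 lower (7.89%), and 0 passed 2-fold there, beside 1.98% of all genes higher. At 8 h the counts were 0 higher (3.38%) and 0 lower (6%), and at 16 h 0 higher (3.88%) and 0 lower (8.78%). At 24 h, 0 were called higher (14.9%) and 1 lower, Gnmt (24%). The median log2 ratio of the Cyp2f2 end to the Cyp2e1 end over the members lay between -0.08 and 0.05 in the 5 libraries, and over all genes tested between -0.14 and 0.07.

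Cbs was the member with the steadiest slope, higher at the Cyp2f2 end in all 5 libraries. At 4 h it stood at 176 CPM in bin 1, 192 in bin 2, 260 in bin 3, 261 in bin 4 and 265 in bin 5 (log2 0.59, interval 0.50 to 0.69). This call was lost with at least 5000 UMIs and in other settings given at the end. Depth moved with the bins at 4 h too, with a median of 4056 UMIs in bin 1 and 17256 in bin 5. Cbs at 4 h stood at 152 CPM in barcodes under 5000 UMIs and at 249 CPM in the others. The part of depth was not tested. In the other libraries the log2 value was 0.43 (0 h), 0.32 (8 h), 0.21 (16 h) and 0.22 (24 h), with each interval above 0. The 24 h value fell below 0 in 2 of 17 other settings, and the others kept their sign in all 17. The 8 h level of Cbs was above that of every other library in each bin, at 446 to 556 CPM. Shmt1 leaned the other way at 4 h (147 against 115 CPM, log2 -0.36) and 16 h (169 against 121 CPM, log2 -0.49), and was level at 0 h (191 against 185 CPM). Its 4 h value ranged from -0.40 to 0.54 over the 17 other settings, of which 16 kept the sign. All 17 kept it at 16 h.

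Bhmt was higher at the Cyp2e1 end in the fed and 24 h libraries and not in the other 3. The 24 h ends may not match those of the fed library, as given above. At 0 h it stood at 1052, 850, 778, 741 and 735 CPM from bin 1 to bin 5, or -0.52 on the log2 scale (interval -0.57 to -0.46). At 8 h it stood at 3979, 4689, 4623, 4672 and 4753 CPM, or 0.26 on the log2 scale (0.23 to 0.28). The remaining libraries gave 0.10 (4 h), 0.14 (16 h) and -0.28 (24 h). The signs at 4 h and 24 h each changed in 1 of 17 other settings. The difference from fed was thus present in all 5 bins, with the fasted libraries above the fed one in each. Sardh was lower at the Cyp2f2 end at 16 h (406 against 312 CPM, log2 -0.38) and higher there at 24 h (599 against 896 CPM, log2 0.58). Depth moved with the bins at 24 h, as given above, and with barcodes of at least 5000 UMIs the 24 h value of Sardh was 0.15.

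Gnmt passed 1.5-fold between the ends in the 24 h library: 4370, 2822, 2045, 1806 and 1631 CPM from bin 1 to bin 5 (log2 -1.42, interval -1.45 to -1.39). Elsewhere it was -0.13 (0 h), -0.23 (4 h), 0.00 (8 h) and 0.14 (16 h). The 4 h value ranged from -1.15 to 0.24 over 17 other settings, so that no direction is given for it, and the 0 h value reached -0.51. Depth and mitochondrial share moved with the bins at 24 h, and the 24 h ends may not match those of other libraries, as given above. With barcodes of at least 5000 UMIs the 24 h value was -0.54, and with at least 5000 UMIs and 5% to 30% mitochondrial UMIs, an alternative chosen after the data had been seen, it was -0.22, no longer past 1.5-fold.

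**Figure D3:**
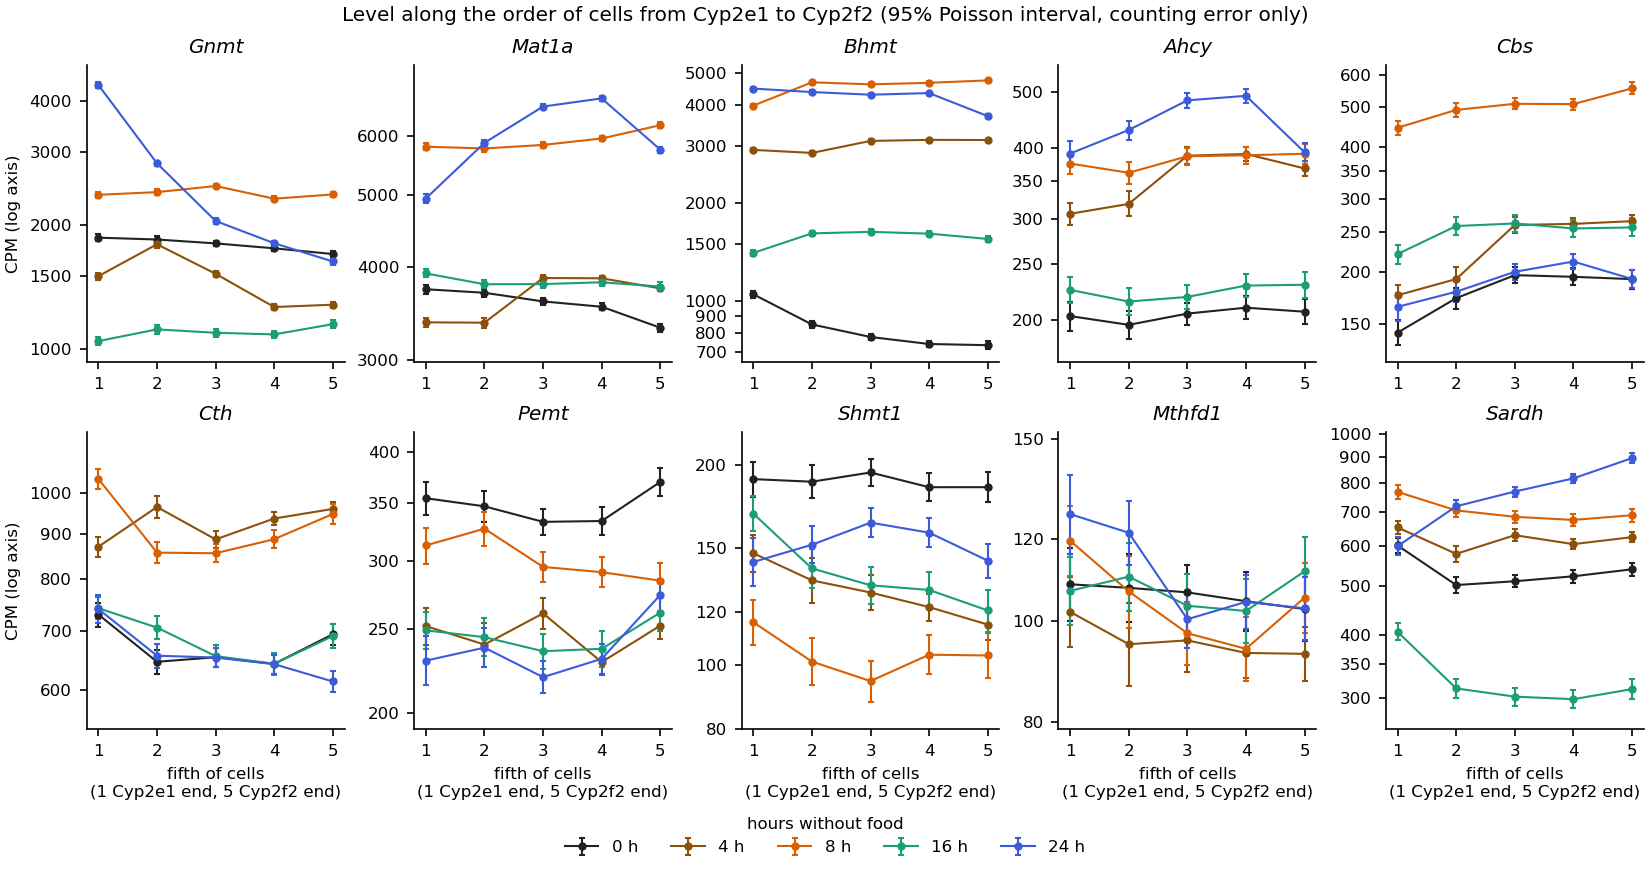
Level of each gene (vertical axis, CPM on a log scale, with 95% Poisson intervals) in 5 equal bins of cells ordered from Cyp2e1 (bin 1) to Cyp2f2 (bin 5), 1 line per library. Most lines are level. Gnmt at 24 h runs from 4370 down to 1631 CPM, and Bhmt at 0 h from 1052 down to 735 CPM.

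Barcodes with under 2% mitochondrial UMIs were left out of the hepatocytes, and the members stood at other levels in them. There were 2172, 5345, 576, 234 and 5400 such barcodes in time order with at least 1000 UMIs and 500 genes. Gnmt was higher in them than in the hepatocytes of the same library at all 5 times, at 3636 against 1788 CPM at 0 h, 6441 against 1407 CPM at 4 h and 8805 against 2270 CPM at 24 h. Pemt was lower in them at all 5 times, at 128 against 346 CPM at 0 h and 87.7 against 238 CPM at 24 h. Sardh stood at 369 against 531 CPM at 0 h and 289 against 782 CPM at 24 h, and was level at 16 h (328 against 325 CPM). The remaining members did not go one way. Cbs was lower in these barcodes at 0 h (122 against 183 CPM) and Ahcy at 4 h (290 against 365 CPM). Mthfd1 was higher in them at 4 h (150 against 95.1 CPM). Mat1a, Bhmt, Ahcy, Cth, Shmt1 and Mthfd1 each changed direction between times. As background, the Gnmt enzyme is cytosolic, the Pemt enzyme sits in the endoplasmic reticulum membrane and the Sardh enzyme in mitochondria. The locations of the other enzymes are not given, and whether location bears on these levels was not tested.

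Depth split the hepatocytes in a similar way for some members. At 4 h, Gnmt stood at 3538 CPM in the 1587 barcodes under 5000 UMIs and at 1257 CPM in the 2980 others. At 24 h it stood at 5673 CPM in 1668 barcodes and at 1826 CPM in the other 2908. At 0 h and 16 h the classes were closer, at 1703 against 1815 CPM and 1203 against 999 CPM. Bhmt hardly depended on depth: its log2 ratio to fed at 8 h was 2.59 in shallow and 2.44 in deep barcodes, and at 24 h 2.48 and 2.33. Mat1a at 24 h stood at 4055 CPM in shallow and 6445 CPM in deep barcodes, log2 ratios to fed of 0.36, under 1.5-fold, and 0.80. Sardh at 24 h stood at 419 CPM in shallow barcodes, a log2 ratio of -0.26 to the shallow barcodes of the fed library, and at 829 CPM in deep ones, a ratio of 0.62. At 4 h its ratios were -0.26 and 0.23. The 16 h values of Gnmt and Sardh fell short of 1.5-fold in shallow barcodes, which made up 63.5% of hepatocytes at that time. They were -0.50 and -0.56 there, and -0.86 and -0.80 in deep barcodes. Gnmt at 8 h passed 1.5-fold in shallow barcodes, at 0.65, and not in deep ones, at 0.39.

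**Figure D4:**
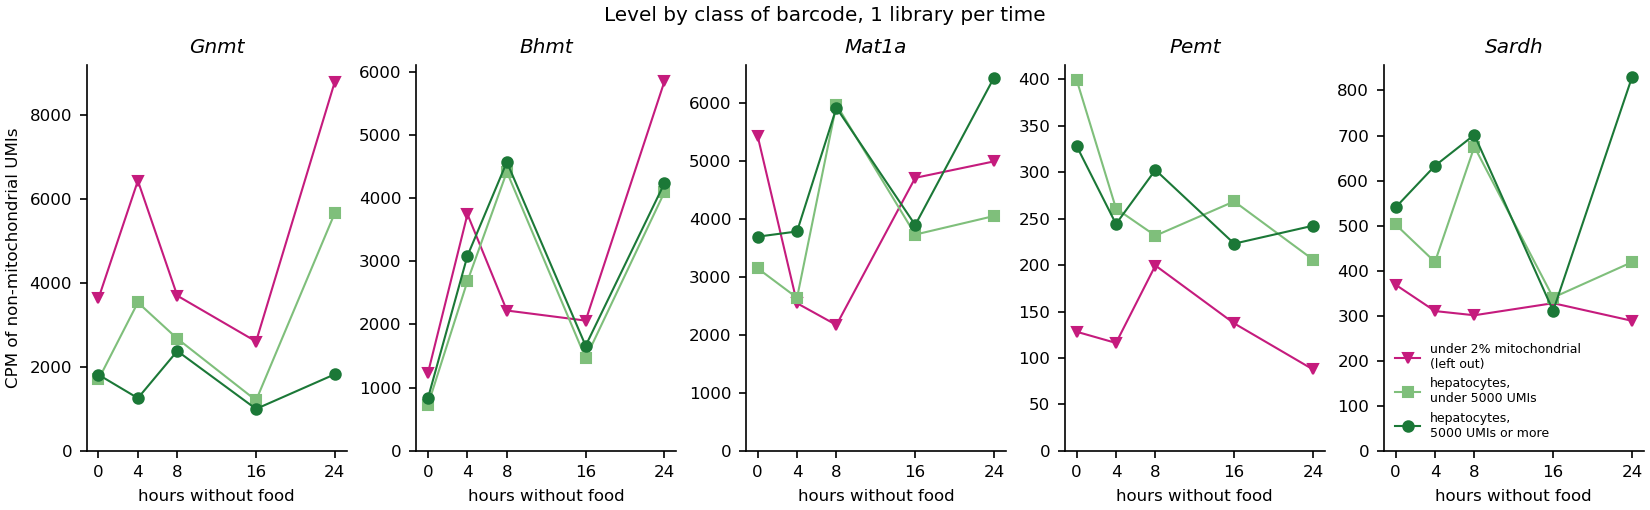
Level (vertical axis, CPM of non-mitochondrial UMIs) of 5 of the genes against hours without food, in barcodes under 2% mitochondrial UMIs (triangles, not counted as hepatocytes) and in hepatocytes under 5000 UMIs (squares) and with 5000 UMIs or more (circles). Gnmt separates the classes most at 4 h and 24 h, and Bhmt in hepatocytes runs close in both depth classes.

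Other genes of these pathways were taken from 7 lists, with 101 of 102 symbols found and 61 at 50 CPM or more in at least 1 library. Called higher and lower than fed were 10 and 6 of 54 tested at 4 h, and 15 and 5 of 55 at 8 h. At 16 h 9 and 9 of 55 were called, and at 24 h 15 and 7 of 57. The shares of all genes called are those given above. The split of calls depended on scaling. Under TMM, with the shares of all genes given above for it, it was 17 higher and 2 lower at 4 h, 22 and 4 at 8 h and 20 and 4 at 24 h.

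In the list on transsulfuration, cysteine, taurine and glutathione, 3 genes were called higher and 0 lower at both 4 h and 8 h, of 11 and 10 tested, beside 13.7% and 17.9% of all genes called higher and 16.5% and 23.2% lower. At 16 h 4 were higher (10.3% of all genes) and 1 lower (13.3%) of 10, and at 24 h 2 higher (16.8%) and 2 lower (20.3%) of 11. Got1, the cytosolic aspartate aminotransferase, stood at 121, 555, 1331, 207 and 459 CPM, a log2 ratio of 3.46 to fed at the 8 h peak. Cdo1, which oxidises cysteine towards taurine, stood at 887 CPM fed and at 1717 to 2162 CPM in the fasted libraries. Csad, the next enzyme on the way to taurine, stood at 107, 180, 200, 412 and 49.4 CPM, highest at 16 h and below fed at 24 h. Tst, a mitochondrial sulfurtransferase, was 0.59 times fed at 16 h. In the glycine and serine list, Sds (serine dehydratase, which turns serine into pyruvate) stood at 127, 271, 509, 157 and 464 CPM. Its relative Sdsl was 2.76-fold above fed at 8 h and Agxt, which converts glyoxylate to glycine, 2.12-fold. The amino acid transporter Slc38a2 stood at 389 CPM at 16 h against 207 CPM fed.

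The folate list had 4 genes called higher and 0 lower at both 8 h and 24 h, of 7 and 8 tested, beside 17.9% and 16.8% of all genes called higher and 23.2% and 20.3% lower. At 4 h 1 was higher (13.7%) and 0 lower (16.5%) of 7, and at 16 h 2 higher (10.3%) and 1 lower (13.3%) of 7. Fpgs, which adds the glutamate tail that retains folates, was 2.38-fold above fed at 8 h, and the mitochondrial folate carrier Slc25a32 2.15-fold. Aldh1l1, which releases the carbon unit of formyl-folate as carbon dioxide, was 0.54 times fed at 16 h. In the choline list, Chka (choline kinase) was 2.86-fold above fed at 4 h. The ethanolamine kinases diverged, with Etnk2 2.05-fold above fed at 8 h and Etnk1 0.46 times fed at 24 h. Abcb4, which exports phosphatidylcholine into bile, was 1.91-fold above fed at 16 h.

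Among methyltransferases that use S-adenosylmethionine, calls went both ways. Nnmt, which methylates nicotinamide, stood at 106, 213, 253, 76.0 and 222 CPM. Mettl7b was 0.49 times fed at 8 h and Inmt 0.54 times fed at 16 h. In the salvage and polyamine list, Srm (spermidine synthase) stood at 79.2 CPM fed and 12.9 to 25.8 CPM in the fasted libraries. Odc1, the first enzyme of polyamine synthesis, was 0.38 times fed at 16 h and between 0.85 and 0.96 times fed in the other 3 libraries, and the antizyme gene Oaz1 was 1.61-fold above fed at 8 h. Sat1, a polyamine acetyltransferase, was 0.77 times fed at 8 h. Of the other methionine cycle genes, Mat2a, the adenosyltransferase of other tissues, stood at 88.1, 54.4, 63.6, 96.4 and 66.0 CPM. Ahcyl1 and Mat2b were at most 1.38-fold and 1.21-fold above fed.

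**Figure D5:**
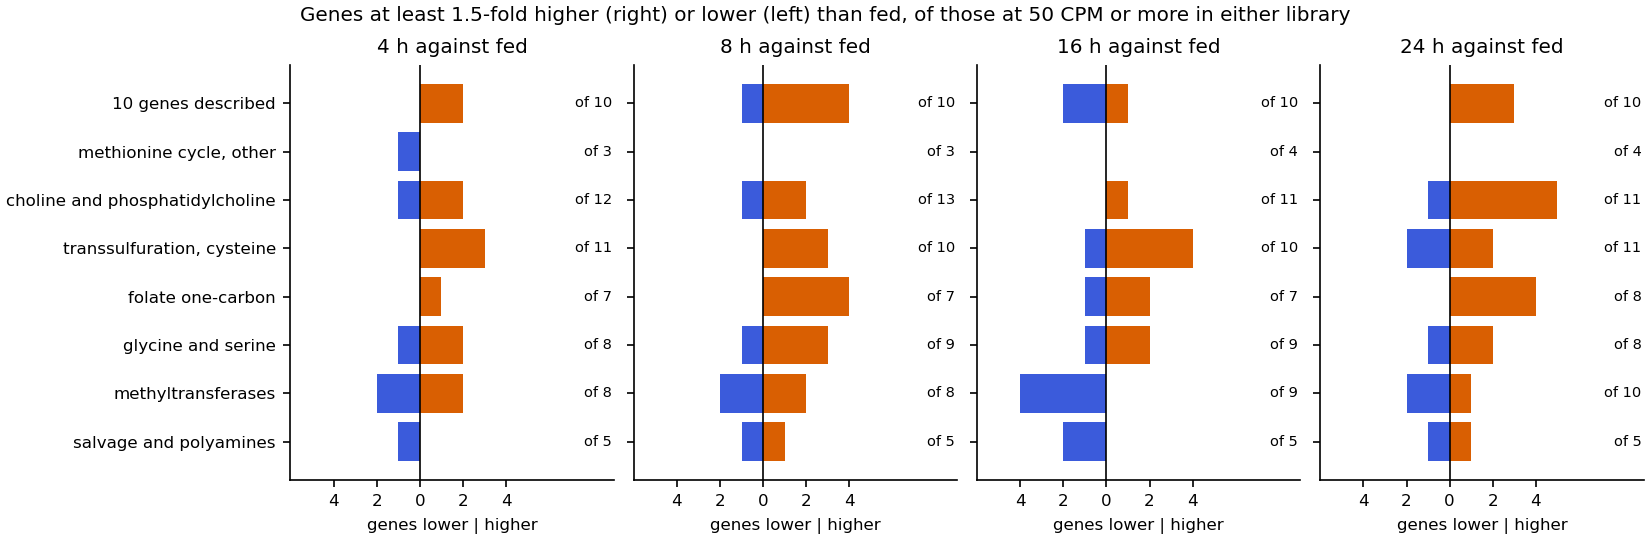
Number of genes at least 1.5-fold higher (bars to the right) or lower (bars to the left) than fed for the 10 genes described and 7 pathway lists (rows), in the 4 fasted libraries (panels), with the number tested at the right. The folate list has bars only to the right at 4 h, 8 h and 24 h, and the polyamine list has 2 genes lower and 0 higher at 16 h.

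Over the 25 sums of 5 libraries and 5 bins, Bhmt and Ahcy were the most alike pair of members (Pearson r 0.93 of log2 values with 10 CPM added), and Cbs and Shmt1 the most opposed (r -0.85). Centred within each library, the first pair had r 0.18 and Mat1a and Ahcy r 0.80. The 25 sums share 5 libraries, with their depth and mitochondrial share. Outside the members, the genes most like Bhmt were Pim3 (r 0.98), Fbxo31 and Rpl7 (both r 0.96). Those most like Cbs were Ppp1r3c (r 0.96), Pxmp4 and Slc25a22 (both r 0.94), and those most like Sardh were Afmid (r 0.96), Gpt2 (r 0.95) and Dera (r 0.94). For Mat1a they were Nop53, Ppp2r5a and Lims2 (r 0.96, 0.94 and 0.91), for Ahcy Ilrun, Pim3 and Glrx (r 0.95, 0.94 and 0.94) and for Gnmt Ndufa8, Park7 and Prdx5 (r 0.93, 0.90 and 0.89). For Mthfd1, which varied least, the highest was Acaa1a at r 0.75.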

How the data were processed

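The authors' deposited values are UMI counts per gene and barcode, not normalized, and per the file headers Cell Ranger 6.0.1 produced them, with the build mm10 per the submitters' processing notes and 10x Genomics 3' version 3 chemistry per the labels' protocols. The table holds 32285 genes and 50000 barcodes, 10000 per library. Columns holding other per-sample values numbered 0. Barcodes were filtered as given above, with no cell type annotation. Doublets were not called and remain in the data. Levels are summed UMIs per 1000000 non-mitochondrial UMIs (CPM). Intervals are exact Poisson for levels, exact conditional binomial for ratios and Clopper-Pearson for shares, at 95%, for counting error only. With 1 library per group no test was made. Named genes were the 10 members and, in each of 7 lists, up to 4 genes of 50 CPM or more with the largest ratio to fed at any time, some of which are not reported here. Likeness names the 3 genes of highest r outside the members. Members, lists and tests were chosen with earlier results of these data known. Positions are from GENCODE M21 (GRCm38). Ratios to fed, axis ratios and counts of calls were recomputed under those of 18 other settings that bear on each, and under 1 more chosen after seeing the data. The calculations were tested on simulated data and ran in edgeR 4.0.16 (TMM factors only), scipy 1.17.1, numpy 2.4.6 and pandas 2.3.3 under python 3.11.15, with plots from matplotlib 3.10.9.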

Additional observations from a re-analysis of the deposited data

Results flagged for a closer look

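For 2 genes the difference between the ends of the Cyp2f2 to Cyp2e1 order had opposite signs at different times, each at least 0.2 on the log2 scale with an interval clear of 0. For Bhmt the log2 ratio of the Cyp2f2 end to the Cyp2e1 end was -0.52 at 0 h and 0.26 at 8 h, a difference of 0.77. Both kept their sign in 17 of 17 other settings. For Sardh it was -0.38 at 16 h and 0.58 at 24 h, a difference of 0.96, and the 24 h value ranged from 0.07 to 1.19 over the 17 other settings. At 24 h the Cyp2e1 end had a median of 2850 UMIs per cell and the Cyp2f2 end 10145, and with at least 5000 UMIs the 24 h value of Sardh was 0.15. Glul and Sds ran between the ends in the opposite direction at 24 h to that at 0 h, so that the 24 h ends may not match those of other libraries. The part of depth was not tested further. Neither difference was tested, since each rests on 1 library per time.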

How the results depend on the processing

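No paired analysis was possible because each time has 1 library, and for the same reason no replicate could be left out. No called value changed sign in any setting. Members called lower than fed at 4 h were 0. They were 1 with 5% to 30% or 2% to 15% mitochondrial UMIs, with at least 5000 UMIs (alone or with 5% to 30%), with the marker condition, without genes over 1% and with median-of-ratios scaling, and 2 with all UMIs in the denominator or free RNA subtracted. Members called lower at 24 h were 0, and 1 with no mitochondrial minimum, 2% to 15% or all UMIs in the denominator. Higher calls at 24 h changed too. Sardh passed 1.5-fold with at least 5000 UMIs, at a log2 ratio of 0.62, and Gnmt with no mitochondrial minimum, at 1.18. TMM scaling called 4 members higher at 4 h and 7 at 8 h, in place of 2 and 4, with 23.1% and 29.5% of all genes called higher. A 2-fold limit left 1 higher at 4 h, 2 higher and 0 lower at 8 h, and 0 higher and 0 lower at 16 h. Along the axis, the 1 member called at the Cyp2f2 end at 4 h became 0 with at least 5000 UMIs (alone or with 5% to 30%), all UMIs, 3 bins, fed limits of the bins or a 2-fold limit. The 1 called lower there at 24 h became 0 with at least 5000 UMIs (alone or with 5% to 30%). Members called higher at that end at 24 h were 0, but 2 with no mitochondrial minimum and 1 with 2% to 15%, without genes over 1%, with free RNA subtracted or with the mean of per-cell CPM. At 0 h 1 was called lower with no mitochondrial minimum or free RNA subtracted, and 1 higher with landmark lists. At 4 h 1 was called lower with no mitochondrial minimum, 2% to 15% or the mean of per-cell CPM. Of pathway genes at 10 CPM or more, 11, 14, 14 and 13 were called lower in time order, in place of 6, 5, 9 and 7. The lower minimum brings in more genes, and neither the number tested nor the share of all genes called at it is given here. Apart from TMM and the 2-fold limit, shares of all genes are likewise not given for these settings. Such counts cannot be set against a background. Over the 13 settings that bear on time, Bhmt ranged from 1.79 to 2.12, 2.39 to 2.73, 0.88 to 1.01 and 2.30 to 2.55 (log2 to fed, in time order). Gnmt ranged from -0.89 to 0.58 at 4 h and from -0.06 to 1.18 at 24 h. The cause of these shifts was not tested. A level near 100 CPM rests on 3483 or more UMIs per library, so counting error is small beside these shifts.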
